A study of Mus musculus with 48 samples.

Results

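CD4+ and CD8+ T cells that had entered the same tumors were compared by RNA sequencing. The comparison used the 4 libraries of WT CD4 TILs and the 4 of WT CD8 TILs, 8 of the 48 libraries of the series, chosen by their genotype, cell type and tissue labels. TILs are tumor-infiltrating lymphocytes, here live CD4+ or CD8+ T cells sorted from subcutaneous B16F10 tumors, a mouse melanoma line that makes pigment. The WT hosts were C57BL/6J mice without deletion of Yap, the controls in a study of Yap-cKO mice, in which Cre driven by the Cd4 promoter removes loxP-flanked Yap from T cells and switches on an EYFP reporter. The same sorts from the tumor-draining lymph nodes (TDLNs) of WT mice, 8 libraries, and from the tumors of Yap-cKO mice, 8 libraries, served only to ask whether the CD4 to CD8 difference changed with tissue or genotype. Mice were young adults, and littermates served as controls. Each library is 1 sorted population. The labels do not say that replicates are separate mice, so p-values measure the spread between these libraries.

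CD4+ and CD8+ T cells share the T cell receptor complex and part in the thymus. CD8+ cells, which read MHC class I, keep the coreceptor chains CD8 alpha and CD8 beta and, once activated, kill with granzymes and perforin. CD4+ cells, which read MHC class II, help other cells through cytokines and CD40 ligand, and one branch of them, the Foxp3+ regulatory T cells, restrains other T cells and is common in tumors. The transcription factors Zbtb7b (ThPOK) and Runx3 hold the CD4 and CD8 choices apart.

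Libraries held between 12656302 and 18471070 counts on genes, and 3 counts in a library came to between 0.162 and 0.237 CPM. CPM are counts divided by the TMM-scaled size of the library. The sorted cells carried RNA of other cells. The summed level of 12 melanoma genes was 6722 to 20613 CPM in CD4 TILs and 4809 to 17313 CPM in CD8 TILs, against 2397 to 8871 and 3003 to 8327 CPM for 15 shared T cell genes. The ranges overlapped in both lists, and edgeR without a block called 0 of 12 melanoma genes (0 at an unadjusted p under 0.05) and 0 of 15 T cell genes (1 at that p). DESeq2 called 0 and 1 (Cd5). Endothelial genes (9) summed to 249.8 to 584 CPM in CD4 TILs and 204 to 2113 CPM in CD8 TILs, where CD8 replicate 2 held the top value and the next was 585.33 CPM. In bulk samples fewer cells of a type and less RNA per cell cannot be told apart. Ddx3y and Eif2s3y, which lie on the Y chromosome, exceeded 5 CPM in both libraries of replicates 1, 2 and 3 and near 0 in both of replicate 4, so 6 of the 8 libraries held them.

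**Figure D1:**
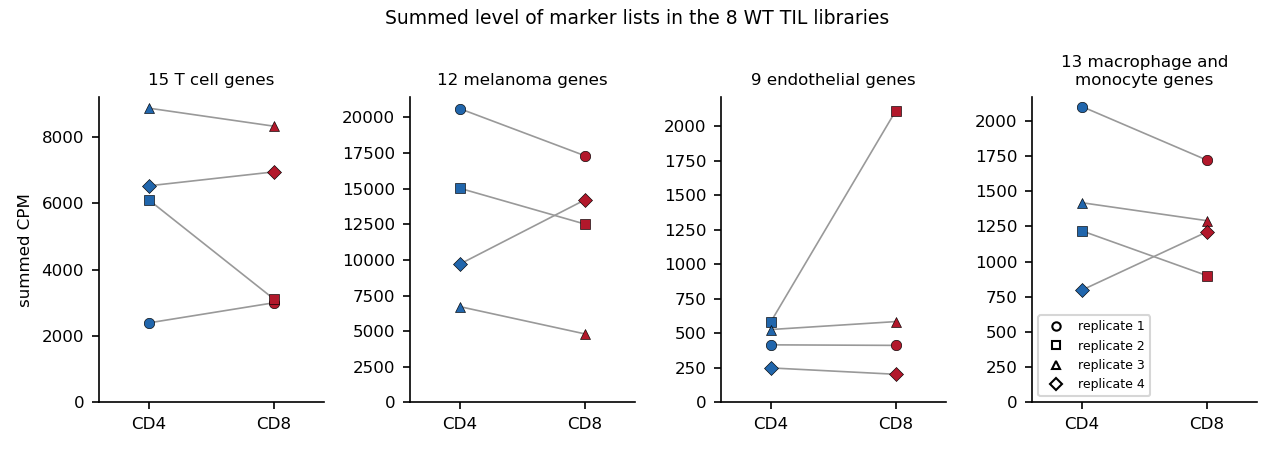
Summed level (CPM, linear axis from 0) of 4 marker lists in the 8 WT TIL libraries, with CD4 TILs in blue, CD8 TILs in red, a symbol for each replicate number and a line joining libraries of the same number. The melanoma sum runs from 4809.3 to 20613 CPM, and CD8 replicate 2 stands at 2113.1 CPM in the endothelial panel.

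The first question was which genes separate the subsets within the tumor. Cd4, Cd8a and Cd8b1, the genes of the coreceptors used for the sort, did so in every library. Of 14266 genes tested, 17 (0.119%) were called, which required a log2 fold change of more than 1 in size together with an adjusted p below 0.05. CD4 TILs were the higher in 7 of these (0.0491%) and CD8 TILs in 10 (0.0701%). Over all 14266 genes, 541 had an unadjusted p under 0.05 in this fit, a smaller share than chance alone gives at that p. In 17 of 17 the libraries of the 2 groups did not overlap, as in 2.38% of all genes tested. When the replicate number was fitted as a block, so that each CD4 library was compared with the CD8 library of its own number, 103 genes (0.722%) were called, 57 higher in CD4 (0.4%) and 46 higher in CD8 (0.322%), and the 17 were among them. DESeq2 without the block called 89 and 60. Below, "called" without a further word refers to edgeR's quasi-likelihood test without the block, "with the block" to the same test with it, and DESeq2 to its fit without the block.

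**Figure D2:**
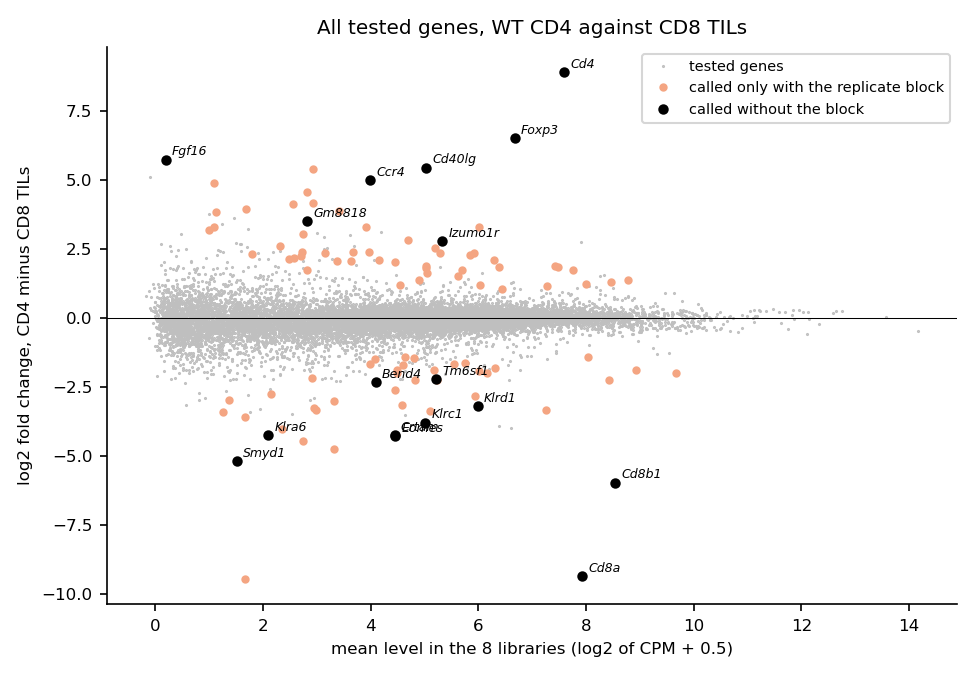
Each of 14266 tested genes by mean level over the 8 libraries (x axis, log2 of CPM + 0.5) and log2 fold change, CD4 minus CD8 TILs (y axis). Black points are the 17 genes called without the block and orange points those called only with it, and among the black points Cd8a (-9.34) and Cd4 (8.90) lie farthest from 0.

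Cd4 (chr6:124864692-124888221, minus strand, GRCm38), the coreceptor that binds MHC class II, stood at 118, 407, 543 and 466 CPM in replicates 1 to 4 of CD4 TILs and at 0.65, 0.452, 1.78 and 0.337 CPM in CD8 TILs. Each CD4 library exceeded each CD8 library by far. The log2 fold change, CD4 minus CD8, was 8.90 ± 0.72 (SE, adjusted p = 0.000779). Cd8a (chr6:71373427-71379173, plus strand), which encodes the chain that binds MHC class I, stood at 0.397, 0.386, 1.51 and 0.653 CPM in CD4 TILs and 293, 246, 748 and 646 CPM in CD8 TILs, with a log2 fold change of -9.34 ± 0.65 (adjusted p = 0.000573). Its partner Cd8b1 (chr6:71322788-71337494, plus strand) was at 6.54, 12.2, 19.2 and 9.5 CPM and 474, 493, 1105 and 871 CPM, with a log2 fold change of -5.95 ± 0.47 (adjusted p = 0.000779). In 8 of 8 libraries the coreceptor genes matched the label. CD4 replicate 1 was the lowest of its group for Cd4, and its 15 T cell genes also summed to the lowest value, 2396.5 CPM.

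Foxp3, the transcription factor that defines regulatory T cells, had the second largest log2 fold change of the 7 genes called higher in CD4. It stood at 92.5, 223, 294 and 197 CPM in CD4 TILs and at 0.325, 0.502, 5.62 and 2.29 CPM in CD8 TILs, with no overlap and a log2 fold change of 6.53 ± 0.84 (adjusted p = 0.0189). Gzmb, which encodes granzyme B, was at 32.9, 64.1, 164 and 134 CPM in CD4 TILs and 66.3, 128, 281 and 259 CPM in CD8 TILs. The ranges overlapped, though CD8 was the higher in 4 of 4 replicate numbers. Its log2 fold change was -0.89 ± 0.55 (adjusted p = 1), and with the block -0.93 ± 0.14 (adjusted p = 0.0338), below the fold threshold, so Gzmb was called in neither fit. CD4 TILs held granzyme B message at a mean of 98.8 ± 60.6 CPM (SD, n = 4), beside 184 ± 103 CPM in CD8 TILs.

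**Figure D3:**
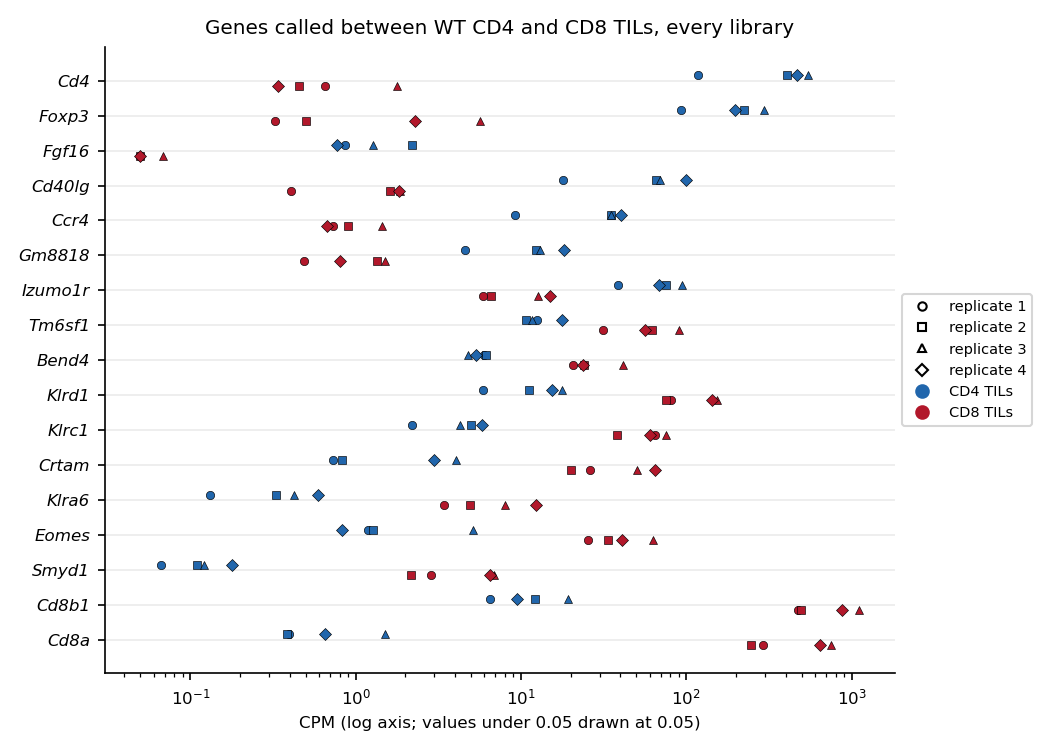
CPM of the 17 called genes (log axis) in each library, with CD4 TILs in blue, CD8 TILs in red and a symbol for each replicate number. Blue and red points do not overlap in any of the 17 genes, and CD4 replicate 1 is the lowest blue point for Cd4, Foxp3, Cd40lg and Ccr4.

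The genes called higher in CD4 TILs were Cd4, Foxp3, Cd40lg, Ccr4, Izumo1r, Fgf16 and Gm8818, a processed pseudogene. Cd40lg encodes CD40 ligand, through which helper cells license B cells and dendritic cells, and stood at 18, 66.1, 69 and 99.8 CPM against 0.406, 1.61, 1.85 and 1.82 CPM, a log2 fold change of 5.45 ± 0.61 (adjusted p = 0.00878). Ccr4, a receptor for Ccl17 and Ccl22 carried by type 2 helper and regulatory T cells, was at 9.25, 35.2, 34.9 and 40.4 CPM against 0.731, 0.904, 1.44 and 0.675 CPM (4.98 ± 0.52, adjusted p = 0.00544). Izumo1r, which encodes folate receptor 4 of regulatory and anergic CD4+ cells, was at 38.7, 75.6, 94.4 and 68 CPM against 5.93, 6.58, 12.8 and 15 CPM (2.78 ± 0.39, adjusted p = 0.0318). In each of these genes CD4 replicate 1 was the lowest CD4 library and still above every CD8 library. Fgf16, a fibroblast growth factor, was called at a low level, 0.859, 2.21, 1.27 and 0.772 CPM, and was at 0, 0, 0.0686 and 0 CPM in CD8 TILs, where it held 1 count in all. Counted against 3 counts per library in CD8 TILs it was at least 6.36-fold higher. Fgf16 and Smyd1 lay below the 10 CPM asked of genes named singly and were chosen after their values were seen. Both reached the count filter only through the group where they were high, so their calls and folds are subject to that selection. Il4 and Il17f, described below, also reached the filter only through CD4 TILs. Other genes with few counts in the lower group, among them Klra6, Klra7, Zbtb16 and Trav11, needed the libraries of their higher group to reach it. The same selection applies to their calls and folds.

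The genes called higher in CD8 TILs were Cd8a, Cd8b1, Klrc1, Klrd1, Klra6, Eomes, Crtam, Smyd1, Bend4 and Tm6sf1. Eomes, a T-box transcription factor of effector and memory CD8+ cells, stood at 1.19, 1.27, 5.14 and 0.831 CPM in CD4 TILs and 25.5, 33.7, 62.9 and 41.2 CPM in CD8 TILs, a log2 fold change of -4.27 ± 0.60 (adjusted p = 0.0327). CD4 replicate 3 was the highest CD4 library, and the other CD4 libraries lay near 1 CPM. Crtam, an adhesion molecule of activated cytotoxic cells, was at 0.727, 0.827, 4.05 and 2.97 CPM against 26.1, 20.2, 50.5 and 64.9 CPM (-4.23 ± 0.64, adjusted p = 0.043). Bend4 was at 6.02, 6.12, 4.78 and 5.34 CPM against 20.6, 24.1, 41.6 and 23.9 CPM (-2.31 ± 0.29, adjusted p = 0.0169), and Tm6sf1 at 12.6, 10.7, 11.7 and 17.6 CPM against 31.4, 62.5, 91 and 56.4 CPM (-2.20 ± 0.33, adjusted p = 0.043). CD8 replicate 3 was the highest library for both.

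Of the 17 called genes, 7 lie on chromosome 6, which holds 753 of the 14266 genes tested. They are Cd4, Cd8a, Cd8b1, Smyd1 and the killer-cell receptor genes Klrc1, Klrd1 and Klra6. Smyd1, a histone methyltransferase known from heart and skeletal muscle, was near 0 in CD4 TILs (0.0661, 0.11, 0.121 and 0.178 CPM) and low in CD8 TILs (2.84, 2.16, 6.86 and 6.48 CPM), at least 25.4-fold higher when CD4 libraries are set at 3 counts each (adjusted p = 0.0109). It lies beside Cd8b1 on the other strand (chr6:71213940-71322233, minus strand). Of its 273 counts in CD8 TILs, 236 were assigned to the 2 transcripts that start next to Cd8b1, and the longest Smyd1 transcript starts 555 bases from the Cd8b1 start. The library kit does not mark strand, so the strand of these reads is not known.

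Promoter sequence was examined where RefSeq (GRCm38.p6) gives the 250 bases before the start site, which it did for 9 of the 17 called genes. Cd4, Cd8b1, Cd40lg, Klrd1 and Crtam were among those without an entry. The hexamer TGTGGT, or ACCACA on the other strand, the core that Runx factors bind, was searched on both strands. It was in the windows of 3 of the 9 (Klrc1, Izumo1r and Smyd1), against 14.0% of 32851 promoters and 13.3% of the 10605 tested genes with a window. The window of Smyd1 lies at another start site than the one beside Cd8b1 and is not shown. The windows of Cd8a, with no match, of Klrc1, higher in CD8, and of Izumo1r, higher in CD4, are printed 5′ to 3′ to show the match on both sides of the comparison, with it in capitals. It starts 87 bases before the start site in Klrc1 and 127 bases before the RefSeq start site in Izumo1r. The Izumo1r transcript with the most counts, Izumo1r-201 (3894 in the 4 CD4 libraries), starts inside that window, at base 14903932. The match lies downstream of that start.
Cd8a, chr6:71373177-71373426, plus strand: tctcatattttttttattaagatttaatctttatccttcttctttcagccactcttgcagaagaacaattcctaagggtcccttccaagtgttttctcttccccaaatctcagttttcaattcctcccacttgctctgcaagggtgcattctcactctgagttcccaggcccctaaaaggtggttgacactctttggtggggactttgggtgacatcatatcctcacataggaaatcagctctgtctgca
Klrc1, chr6:129678974-129679223, minus strand: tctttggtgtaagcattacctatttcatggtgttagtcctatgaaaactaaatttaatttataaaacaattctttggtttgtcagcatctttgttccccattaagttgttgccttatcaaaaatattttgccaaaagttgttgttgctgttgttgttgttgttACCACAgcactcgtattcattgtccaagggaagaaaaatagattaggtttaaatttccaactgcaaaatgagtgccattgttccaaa
Izumo1r, chr9:14903768-14904017, minus strand: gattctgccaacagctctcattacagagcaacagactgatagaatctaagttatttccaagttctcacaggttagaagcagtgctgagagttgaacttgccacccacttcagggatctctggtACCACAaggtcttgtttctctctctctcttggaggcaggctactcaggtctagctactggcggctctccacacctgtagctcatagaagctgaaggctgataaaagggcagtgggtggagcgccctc

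Regulatory and helper programs were examined next, as lists of known genes. Each list is to be read beside the shares over all genes tested, 0.119% called and 0.722% with the block. Higher in CD4 were 0.0491% and 0.4%, and higher in CD8 were 0.0701% and 0.322%. The lists were chosen with earlier results of these data known, so an excess over these shares describes the lists and is not a test of a program. The CD4 and CD8 lineage lists also hold Cd4, Cd8a and Cd8b1, whose difference the sort fixed in advance. Of 8 genes of the CD4 lineage, 2 were called higher in CD4 TILs (Cd4 and Cd40lg), 4 with the block and 4 by DESeq2 (Zbtb7b and Icos besides), and 0 were called higher in CD8. Zbtb7b, the CD4 lineage factor, stood at 6.28, 32.1, 32.7 and 30.8 CPM in CD4 TILs and 2.92, 2.66, 7.13 and 6.68 CPM in CD8 TILs. CD4 replicate 1 alone fell within the CD8 range, and the log2 fold change was 2.39 ± 0.55 (adjusted p = 0.203), or 2.29 ± 0.38 with the block (adjusted p = 0.0488). Icos, a costimulatory receptor, was at 135, 327, 526 and 336 CPM against 65.5, 56.9, 190.4 and 81.5 CPM, 1.77 with the block (adjusted p = 0.0269).

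Among 30 genes of regulatory T cells, 2 were called, Foxp3 and Izumo1r, and 8 with the block (Il2ra, Ctla4, Ccr8, Icos, Gpr83 and Klrg1 besides), in each case higher in CD4. The median log2 fold change of the list was 1.53, against -0.03 for all genes tested, and 21 of 30 were higher in CD4 in 4 of 4 replicate numbers, as in 9.44% of all genes. Il2ra, the interleukin-2 receptor alpha chain, was at 20.2, 38.8, 66.4 and 121 CPM in CD4 TILs and 8.12, 3.67, 13 and 17.7 CPM in CD8 TILs, without overlap (2.46 ± 0.33 with the block, adjusted p = 0.0195, against 0.236 without). Ctla4, the inhibitory receptor that competes with Cd28, was at 152, 316, 337 and 306 CPM against 65.1, 57.6, 138 and 44.9 CPM (1.93 ± 0.30, adjusted p = 0.0321 with the block and 0.142 without). CD8 TILs held Ctla4 message too, at 44.9 CPM or more. Ccr8, a chemokine receptor of tumor regulatory T cells, was at 72.8, 73.2, 207 and 113 CPM against 14.2, 1.66, 12.7 and 19.5 CPM (3.50 ± 0.50, adjusted p = 0.0266 with the block and 0.119 without).

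DESeq2 called 15 of the 30, all higher in CD4. Among them were genes that edgeR called in neither fit. Tnfrsf4, which encodes OX40, was at 246, 373, 639 and 401 CPM against 95.8, 6.83, 67.6 and 78.6 CPM, without overlap, and CD8 replicate 2 was far below the other CD8 libraries (adjusted p = 0.232, 0.121 with the block). Ebi3, a subunit of interleukin-27 and interleukin-35, was at 13.8, 25, 31.5 and 13.9 CPM against 5.04, 0.753, 2.61 and 2.16 CPM (adjusted p = 0.0844 and 0.0561), and Areg, which encodes amphiregulin, at 14.7, 36.6, 54.3 and 22.1 CPM against 5.12, 0.603, 7.89 and 1.15 CPM (0.258 and 0.0744). Outside these, Entpd1, which encodes the ectoenzyme CD39 and stands in the list, had the opposite sign, -0.60, with 19.8, 29.1, 44.2 and 36 CPM in CD4 and 34.2, 62.1, 58.1 and 41.2 CPM in CD8 TILs, and was called by neither tool (adjusted p = 1, 0.413 with the block).

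The helper lists differed in their counts. Of 6 type 2 helper genes tested, 1 was called (Ccr4) and 4 with the block (Gata3, Il4 and Maf besides). Gata3, the master factor of type 2 cells, stood at 33.3, 63.9, 110.2 and 110.3 CPM against 12.7, 18.6, 39.8 and 23.3 CPM, a log2 fold change of 1.75 ± 0.44 (adjusted p = 0.318, 0.0109 with the block). Il4 was low, at 1.72, 2.7, 3.57 and 4.69 CPM in CD4 TILs, and 0.0812, 0, 0 and 0.337 CPM in CD8 TILs (0.0328 with the block). Maf, which drives Il4 and Il10 transcription, was at 33.3, 51.1, 63.7 and 51.5 CPM against 19.3, 14.3, 14.9 and 7.76 CPM (0.0748 without the block and 0.0482 with it). DESeq2 called 5 of the 6, all higher in CD4. The median of the type 2 list was 2.38, which covers only the 6 of 10 listed genes that reached the count filter.

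Of 7 type 17 genes tested, 0 were called by edgeR without the block (4 at an unadjusted p under 0.05), 2 by DESeq2 (Il17f and Ccr6) and 1 with the block, Il17f, at 0.925, 4.19, 4.35 and 3.27 CPM in CD4 TILs and 0.0812, 0.452, 0.274 and 0 CPM in CD8 TILs (4.04 ± 0.67, adjusted p = 0.0465). Ccr6, the receptor for Ccl20, was at 6.61, 35.4, 19.6 and 23.3 CPM against 5.93, 1.56, 3.29 and 3.17 CPM (adjusted p = 0.142, 0.213 with the block). In the type 1 list, 0 of 10 were called in either fit or by DESeq2, while 1 had an unadjusted p under 0.05 in edgeR without the block. The list's median was 0.06. Ifng, the defining cytokine of that list, was at 4.16, 16.7, 32.8 and 55.4 CPM in CD4 and 58.2, 12, 52 and 215 CPM in CD8 TILs, and CD8 replicate 4 held the highest value. Il2 was at 2.38, 5.57, 6.41 and 12.8 CPM against 0.731, 1.46, 3.36 and 1.96 CPM (1.85, adjusted p = 0.687, 0.118 with the block). In the follicular helper list, 0 of 9 were called in either fit or by DESeq2 (2 at an unadjusted p under 0.05). Its members Il21 and Cxcr5 had opposite signs, Il21 at 2.23 (adjusted p = 0.507, 0.308 with the block) and Cxcr5, the follicle-homing receptor, at -1.40 (adjusted p = 1, 0.0541 with the block).

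Cytotoxic genes lay mostly on the CD8 side, and their count of calls differed between fits. Of 16 tested, edgeR called 0 without the block (6 at an unadjusted p under 0.05) and 6 with it (Gzma, Gzmm, Prf1, Nkg7, Ctsw and Cst7), DESeq2 called 4 (Gzmm, Prf1, Nkg7 and Cst7), the median was -1.16, and 10 of 16 were higher in CD8 in 4 of 4 replicate numbers, as in 7.44% of all genes. Prf1, which encodes perforin, stood at 5.82, 10.2, 32.2 and 12.1 CPM in CD4 TILs and 62.6, 49.6, 139 and 178 CPM in CD8 TILs, without overlap, a log2 fold change of -2.83 ± 0.58 (adjusted p = 0.139) and -2.91 ± 0.33 with the block (0.0109). Nkg7, a granule membrane protein, was at 109.9, 236, 629.8 and 336 CPM against 849.8, 592, 2135 and 1641 CPM, and CD4 replicate 3 exceeded CD8 replicate 2 (-2.08 ± 0.28, adjusted p = 0.0195 with the block, 0.447 without). Gzmm was at 0.992, 0.607, 2.72 and 1.19 CPM against 4.87, 9.49, 15.8 and 22.1 CPM (0.0171 with the block, 0.0902 without).

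Gzma spread widely within both subsets, at 3.97, 4.08, 58.6 and 41.4 CPM in CD4 TILs and 15.5, 48, 245 and 96.8 CPM in CD8 TILs, with replicate 3 the highest on both sides. It was called with the block (-2.17 ± 0.35, adjusted p = 0.0414) and not without (1). Gzmk, a granzyme of early effector and memory CD8+ cells, was at 3.57, 31.3, 67.4 and 29.8 CPM against 81.5, 116, 328 and 94.1 CPM, without overlap, and was called in neither edgeR fit nor by DESeq2 (edgeR adjusted p = 0.763 and 0.0561). Granzyme genes share sequence with near copies, so the split of their counts is uncertain.

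**Figure D4:**
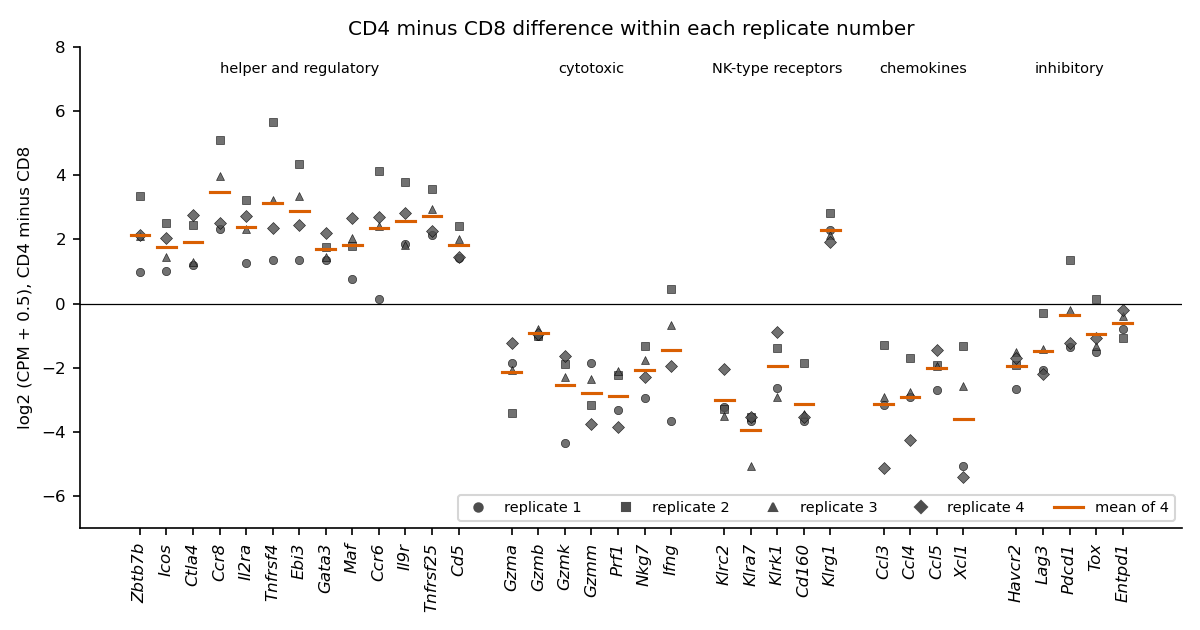
Difference of log2(CPM + 0.5) between the CD4 and the CD8 library of the same replicate number (y axis, a symbol for each number, orange bar for the mean of 4) for list members named in the text. The 4 points of Zbtb7b, Ctla4, Ccr8 and Il2ra lie above 0 and those of Prf1, Nkg7, Gzmb, Ccl4 and Klrc2 below 0, while Klrg1 lies above 0 among the NK-type receptors.

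NK-type receptors, which let T cells read MHC class I and stress ligands, gave 4 calls, as many as the CD8 lineage list, with which they share Crtam. Of 19 tested, 4 were called higher in CD8 (Klrc1, Klrd1, Klra6 and Crtam), against 0.0701% of all genes tested. With the block 8 were called higher in CD8, against 0.322%, and DESeq2 called 10. In 11 of 19 the subsets did not overlap, as in 2.38% of all genes, and the median was -2.02. Klrc1 encodes NKG2A and Klrd1 its partner CD94, an inhibitory pair that binds Qa-1. Klrc1 was at 2.18, 4.96, 4.29 and 5.82 CPM in CD4 TILs and 64.5, 38.1, 75.3 and 60.5 CPM in CD8 TILs (-3.78 ± 0.36, adjusted p = 0.00259). Klrd1 was at 5.88, 11.3, 17.7 and 15.4 CPM against 80.6, 75.8, 154 and 143 CPM (-3.17 ± 0.39, adjusted p = 0.0162). Every CD8 library exceeded every CD4 library for both chains of the pair. Klra6, of the Ly49 family, was at 0.132, 0.331, 0.423 and 0.594 CPM against 3.41, 4.92, 8.02 and 12.3 CPM (-4.24 ± 0.59, adjusted p = 0.0315). Ly49 genes resemble each other, so their counts are uncertain.

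Klrc2, Klra7, Klre1 and Cd160 were called by edgeR with the block and by DESeq2 without it. Klra7 was at 0.0661, 0.441, 0.423 and 1.72 CPM against 6.58, 10.4, 30.6 and 25.2 CPM (-4.96 ± 0.48, adjusted p = 0.00564 with the block, 0.0748 without). Klrc2 was at 0.661, 0.552, 1.39 and 2.79 CPM against 10.3, 9.74, 21.1 and 13 CPM (0.011 with the block, 0.0702 without). Klrk1, which encodes the activating receptor NKG2D, was at 6.81, 15.7, 17 and 25.8 CPM against 44.5, 41.7, 130.2 and 48.1 CPM, without overlap, and was called by DESeq2 and in neither edgeR fit (adjusted p = 0.237, 0.0684 with the block). One member went the other way. Klrg1, a receptor for cadherins on effector and regulatory T cells, was higher in CD4 TILs in 4 of 4 numbers, at 46.3, 95.9, 163 and 71.1 CPM against 9.1, 13, 37 and 18.4 CPM (2.33 ± 0.20, adjusted p = 0.0037 with the block, 0.168 without).

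Markers of other lymphocytes were read beside these receptors. Among 8 NK cell markers, Ncr1 and Klra8 stood at 5.28 CPM or less in each library, where the called receptor gene Klra6 stood at 3.41 to 12.3 CPM in CD8 TILs. The list summed to 11.4 to 73.2 CPM in CD4 and 45.6 to 339.7 CPM in CD8 TILs, in CD8 TILs mostly through Gzma and Eomes. Of the 5 tested, 0 had a positive log2 fold change, and the median was -1.91. Higher in CD8, edgeR called 1 without the block (2 at an unadjusted p under 0.05) and 2 with it. DESeq2 called Klra4 and Eomes higher in CD8. The 9 genes of gamma delta and innate-like T cells summed to 21.4 to 60.8 CPM in CD4 and 23.1 to 160.0 CPM in CD8 TILs, with the top value in CD8 replicate 3. Trdc, the constant gene of the delta chain, was at 3.01, 4.22, 29.7 and 6.61 CPM in CD8 replicates 1 to 4. Without CD8 replicate 3, 5 genes were called higher in CD4 and 4 higher in CD8. B cell genes (8) summed to 8.61 to 19.6 CPM in CD4 and 22.8 to 31.1 CPM in CD8 TILs without overlap, and neutrophil genes (8) to 23.8 to 36.8 and 11.5 to 123 CPM, with 0 called by edgeR or DESeq2 in either list (4 of 6 and 2 of 6 tested were at an unadjusted p under 0.05). The part of other cells in the receptor differences was not tested. Zbtb16, which encodes PLZF of innate-like T cells, was higher in CD4 TILs, at 1.12, 4.52, 6.23 and 8.55 CPM against 0.0812, 0.552, 0.549 and 0.0675 CPM (3.98 ± 0.63, adjusted p = 0.0353 with the block, 0.128 without). Of 99 T cell receptor V segments tested, edgeR called 0 without the block (23 at an unadjusted p under 0.05) and 3 with it, Trav7-4, Trav11 and Trbv2, each higher in CD4. DESeq2 called 4 higher in CD4 (Trav7-4, Trav21-dv12, Trav4n-4 and Trav14d-3-dv8) and 1 higher in CD8 (Trbv12-1). These segments were named after their values were seen. Trav11, which invariant NKT cells use, was at 6.41, 16.1, 16.3 and 16.9 CPM in CD4 TILs and 0, 1.15, 0 and 0 CPM in CD8 TILs (0.0315 with the block, 0.128 without). Cd163l1, a scavenger receptor of gamma delta T cells, had the opposite sign, -3.49, and was called by DESeq2 and in neither edgeR fit (adjusted p = 0.171 and 0.118).

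Inhibitory receptors and exhaustion genes did not move as one group. Of 20 tested, 1 was called higher in CD8 (Eomes), and with the block 4 were higher in CD8 (Eomes, Havcr2, Cd160 and Nr4a2) and 1 in CD4 (Ctla4). DESeq2 called 4 higher in CD8 (Eomes, Havcr2, Cd160 and Cd244a) and 1 in CD4 (Ctla4). Havcr2, which encodes TIM-3, was at 7.2, 4.58, 12.6 and 10.9 CPM in CD4 TILs and 48, 18.8, 37 and 36.2 CPM in CD8 TILs, without overlap (-2.01 ± 0.25, adjusted p = 0.014 with the block, 0.113 without). Cd160 was at 2.91, 5.74, 6.04 and 9.2 CPM against 42.5, 22.1, 70.3 and 113 CPM (0.00722 with the block and 0.0532 without). Nr4a2, an orphan nuclear receptor induced by T cell receptor signals, was at 17.9, 15.6, 57.6 and 14.4 CPM against 54.7, 39.2, 156 and 73.8 CPM (0.0149 with the block, 0.835 without). Pdcd1, which encodes PD-1, was high in both subsets, at 135, 332, 625 and 154 CPM against 343, 129.9, 723 and 362 CPM, with overlapping ranges (adjusted p = 1, 0.844 with the block). Lag3 was at 1.26, 5.19, 7.31 and 3.74 CPM against 6.9, 6.43, 20.1 and 19 CPM (0.951 and 0.197), and Tox at 22.5, 49.4, 70 and 43.5 CPM against 65.2, 44.9, 175 and 91 CPM (1 and 0.313).

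Chemokine genes spread widely among the CD8 libraries. Of 17 chemokines tested, edgeR called 0 without the block (4 at an unadjusted p under 0.05) and 2 with it, Ccl4 and Ccl5, and DESeq2 called 3, Ccl3, Ccl4 and Xcl1, all higher in CD8. Ccl5 was at 58.8, 143, 396 and 225 CPM in CD4 TILs and 382, 534, 1523 and 619 CPM in CD8 TILs (-2.00 ± 0.23, adjusted p = 0.0109 with the block, 0.636 without). Ccl4, an inflammatory chemokine, was at 22.9, 20.4, 36.5 and 32.1 CPM against 174, 67.3, 250.2 and 621 CPM (-2.92 ± 0.38, 0.0171 with the block, 0.0836 without). Ccl3 was at 12.9, 6.29, 13.1 and 13.5 CPM against 119, 16.1, 101 and 492 CPM and Xcl1, the ligand of cross-presenting dendritic cells, at 2.64, 9.27, 21.5 and 8.25 CPM against 105, 23.8, 129 and 369 CPM. In Ccl3, Ccl4 and Xcl1 alike, CD8 replicate 4 was the highest library and CD8 replicate 2 the lowest of the CD8 libraries. Ccl3 and Xcl1 did not overlap between subsets and were called in neither edgeR fit (adjusted p = 0.149 and 0.151, 0.0555 and 0.0992 with the block).

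Of 17 chemokine receptors tested, 1 was called (Ccr4) and 2 with the block (Ccr4 and Ccr8), higher in CD4, and DESeq2 called 4, with Ccr3 and Ccr6 besides. In the TNF superfamily, 1 of 23 was called (Cd40lg) and 3 with the block, where Tnfrsf25, which encodes DR3, and Tnfrsf8, which encodes CD30, joined it. DESeq2 called these 3 and Tnfrsf4 higher in CD4, and Tnfsf4 higher in CD8. Tnfrsf25 was at 13.6, 43.9, 64.1 and 57.7 CPM against 2.68, 3.26, 7.89 and 11.5 CPM (2.86 ± 0.29, adjusted p = 0.00596 with the block, 0.138 without), and Tnfrsf8 at 2.51, 7.83, 10.6 and 9.74 CPM against 0.244, 0.854, 1.65 and 2.29 CPM (0.0171 and 0.313). Both receptors did not overlap between subsets. Among 16 genes of the common gamma chain receptors and their signaling, edgeR called 0 without the block (4 at an unadjusted p under 0.05) and 2 with it, Il2ra and Il9r. DESeq2 called 4 (Il2ra, Il9r, Cish and Socs2), all higher in CD4. Il9r was at 3.64, 15.5, 9.37 and 15.8 CPM against 0.65, 0.653, 2.26 and 1.82 CPM (0.0311 with the block, 0.119 without).

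Genes common to T cells, naive genes and growth genes showed few differences. Of 20 shared T cell genes, edgeR called 0 without the block (2 at an unadjusted p under 0.05) and 1 with it, which DESeq2 also called. It was Cd5, a brake on T cell receptor signals, at 74.2, 275, 409 and 312 CPM against 27.5, 50.6, 102 and 113 CPM (1.84 ± 0.21, adjusted p = 0.0109 with the block, 0.548 without). Of 15 naive and stem-like genes, edgeR called 0 without the block (1 at an unadjusted p under 0.05) and 1 with it, and DESeq2 called the same gene, Dapl1, at 7.14, 8.88, 14.3 and 7.48 CPM against 25, 24.4, 42.5 and 46.8 CPM and higher in CD8 (0.0191 and 0.0836). Of 17 residency and adhesion genes, edgeR called 0 without the block (2 at an unadjusted p under 0.05), DESeq2 called 1 (Itgb8) and edgeR with the block 1, Itgb7, the integrin chain of gut and skin homing, at 229, 717, 903 and 708 CPM against 85.2, 162, 406 and 322 CPM (0.0291 and 0.991). In the CD8 lineage list, 4 of 8 were called (Cd8a, Cd8b1, Eomes and Crtam) and 5 with the block (Cd7 besides) and 5 by DESeq2 (Xcl1 besides), all higher in CD8, while Runx3, the factor that silences Cd4 in CD8+ cells, had overlapping ranges, 14.7, 60.3, 81.7 and 75 CPM against 35.3, 51.6, 154 and 63.8 CPM (adjusted p = 1, 0.771 with the block). Of 24 cell cycle genes, 18 interferon-stimulated genes and 18 Hippo pathway genes tested, 0 were called in either fit or by DESeq2 (0 at an unadjusted p under 0.05 without the block), and the lists had medians of -0.11, 0.16 and -0.12 on the log2 scale. Of 17 immediate early genes, edgeR called 0 without the block (1 at an unadjusted p under 0.05) and 1 with it, Nr4a2, and DESeq2 called 0. The part of tumor RNA in the cell cycle values was not tested.

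The number of calls depended on single libraries. Leaving out single libraries gave 3 to 24 calls higher in CD4 and 3 to 14 higher in CD8, the highest CD4 count without CD4 replicate 1. The counts were 3 and 3 without CD4 replicate 2, CD4 replicate 4 or CD8 replicate 4, and 4 and 7 without CD4 replicate 3. Without CD8 replicate 2, the library with high endothelial genes, 6 were higher in CD4 and 8 in CD8. Without both libraries of replicate 4, the number with Ddx3y and Eif2s3y near 0, 0 and 0 were called by edgeR's quasi-likelihood test, with 810 genes at an unadjusted p under 0.05, and with the block 14 and 22.

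The next question was whether the difference between subsets was the same in tumor and lymph node. It was tested as an interaction over the 16 WT libraries. Of 15063 genes tested, 62 (0.412%) were called, 22 with a CD4 minus CD8 difference that was higher in TILs (0.146%) and 40 with one that was lower (0.266%). In 60 of the 62 the difference was larger in size in TDLNs, and in 46 the log2 fold change in TILs was under 1 in size. Of the 17 genes called in TILs, 0 were among them. With the replicate number within each tissue as a block, 264 (1.75%) were called, 124 and 140. With libraries scaled on the 15 T cell genes, 9 and 6 were called. Melanoma genes summed to 12.89 to 20.554 CPM in TDLN libraries and to 4294.1 to 18679 CPM in TIL libraries on the common scale of the 16, and macrophage and monocyte genes to 21.486 to 78.177 CPM and 731.67 to 1903.8 CPM. Scaling on T cell genes rescales each library as a whole and does not remove RNA of other cells. The part of melanoma and myeloid RNA in the interaction was therefore not tested.

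Havcr2 had opposite signs in the tissues. In TDLNs it stood at 4.01 ± 0.694 CPM in CD4 and 0.207 ± 0.167 CPM in CD8 cells (mean ± SD, n = 4), and in TILs at 8.14 ± 3.41 and 31.8 ± 11.1 CPM. The CD4 minus CD8 log2 fold change was 4.17 in TDLNs and -1.97 in TILs, a difference of -6.14 ± 0.65 (SE, adjusted p = 0.000246, 0.00776 with T cell scaling). CD8 TDLN libraries held at most 7 counts of Havcr2, so 4.17 and -6.14 are not exact. In the fit of TILs alone it was not called by edgeR without the block (adjusted p = 0.113). Gzmb had the same form, 1.78 in TDLNs and -0.86 in TILs, from 15.3 ± 3.03 and 4.43 ± 0.728 CPM in TDLNs to 91.4 ± 56.8 and 166 ± 91 CPM in TILs. Its difference of -2.64 ± 0.64 was not called without the block (adjusted p = 0.0981) and passed with it (0.00016). Nkg7 kept its direction, -5.79 in TDLNs and -1.96 in TILs, with CD4 cells at 17.8 ± 10.3 CPM in TDLNs and 304 ± 209 CPM in TILs and CD8 cells at 990.2 ± 348 and 1179 ± 624 CPM (difference 3.84 ± 0.73, adjusted p = 0.0267).

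Ly6c2, which encodes a Ly6C surface protein of memory CD8+ cells and monocytes, separated the subsets in TDLNs, at 9.53 ± 2.69 CPM in CD4 and 1223 ± 430.0 CPM in CD8, and less in TILs, at 110.3 ± 51.2 and 515 ± 327 CPM (difference 4.78 ± 0.67, adjusted p = 0.00407). Its neighbor in sequence Ly6c1 did the reverse in TDLNs, 98.2 ± 32.3 and 1.49 ± 0.402 CPM, and overlapped in TILs, 20.5 to 51.4 CPM in CD4 and 6.56 to 82 CPM in CD8 (difference -5.71 ± 0.84, adjusted p = 0.00683). The pair share sequence, so the split of their counts is uncertain. Ccr9, the gut-homing chemokine receptor, was at 84.4 ± 38.1 CPM in CD8 and 6.56 ± 1.2 CPM in CD4 cells of TDLNs, and at 7.77 ± 2.12 and 4.37 ± 1.2 CPM in TILs (difference 2.86 ± 0.44, adjusted p = 0.00953). With T cell scaling Ccr9 was not called (adjusted p = 0.243). Haao, an enzyme of tryptophan breakdown, had a log2 fold change of -5.55 in TDLNs and -1.34 in TILs (difference 4.21 ± 0.50, adjusted p = 0.000802).

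In Myo10 and Cttn the TIL ranges of the subsets overlapped. Myo10, a myosin of cell protrusions, was at 28.8 to 41.7 CPM in CD4 and 1.15 to 2.07 CPM in CD8 cells of TDLNs, and at 32.2 to 62.9 and 34 to 120.3 CPM in TILs (difference -4.87 ± 0.51, adjusted p = 0.000246, 0.0558 with T cell scaling). Cttn, which encodes the actin-binding cortactin, was at 2.28 ± 0.852 and 0.135 ± 0.108 CPM in TDLNs and 115 ± 32.4 and 116 ± 42.2 CPM in TILs (adjusted p = 0.0113, 0.283 with T cell scaling). Gas7, Pltp, Lgmn, Cers6 and Gm49391 completed the 6 genes with the smallest p in each direction, with adjusted p between 0.000802 and 0.012, of which Gas7 and Gm49391 stayed under 0.05 with T cell scaling (0.0412 and 0.03), while Pltp, Lgmn and Cers6 did not (0.0659, 0.199 and 0.705). Gm49391 held 0 counts in every CD4 TDLN library. Set at 3 counts in each of these, it was at least 12.5-fold higher in CD8 than in CD4 cells of TDLNs, and its fitted difference is not an exact value. The tissue of origin and the amount of tumor RNA cannot be told apart in these libraries.

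**Figure D5:**
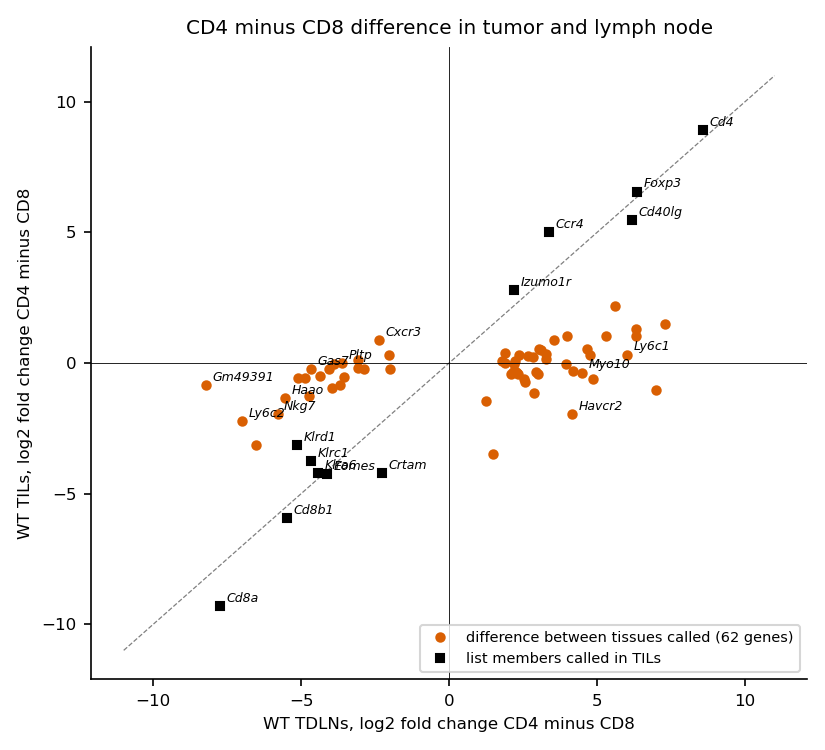
Log2 fold change, CD4 minus CD8, in WT TDLNs (x axis) and WT TILs (y axis) for the 62 genes whose difference between tissues was called (orange) and for list members called in TILs (black), with a dashed line of equality. Orange points lie near 0 on the y axis in most cases, Havcr2 crosses to negative values in TILs, and Cd4, Foxp3, Eomes and Cd8b1 lie close to the dashed line.

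Cd4, Foxp3, Eomes and Cd8b1 had the same direction in both tissues. For Cd4 the log2 fold change was 8.92 in TILs and 8.59 in TDLNs (difference 0.34 ± 0.65, adjusted p = 0.932), for Foxp3 6.57 and 6.36 (0.20 ± 0.82, 0.97), for Eomes -4.24 and -4.13 (-0.11 ± 0.75, 0.987) and for Cd8b1 -5.92 and -5.46 (-0.46 ± 0.49, 0.928). A change with tissue was not detectable within these errors. Of the members tested for it, 0 of 8 CD4 lineage, 0 of 8 CD8 lineage and 0 of 20 NK-type receptor genes were called, and 1 of 16 cytotoxic genes (Nkg7). Over all genes tested the share called was 0.412%. Klrd1 was separated more in TDLNs, -5.14, than in TILs, -3.15 (1.99 ± 0.46, adjusted p = 0.0759, 0.00471 with the block).

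The last question was whether the subsets differed in another way in Yap-cKO tumors. Of 15198 genes tested over the 16 TIL libraries, 0 (0%) were called by edgeR's quasi-likelihood test, with 525 at an unadjusted p under 0.05. That is a smaller share than chance alone gives at that p. DESeq2 called 43 (0.283%). With the replicate number within each genotype as a block, 4 (0.0263%) were called, Ccl2, Ccl12, Lyz2 and Bend4, named after their values were seen. Ccl2 and Ccl12, which draw monocytes, and Lyz2, a lysozyme of macrophages and neutrophils, are genes of myeloid cells, and each was lower in CD4 than in CD8 TILs of Yap-cKO tumors. Bend4, called higher in WT CD8 TILs above, had a CD4 minus CD8 log2 fold change of -2.30 in WT and -5.31 in Yap-cKO tumors, a difference of 2.97 ± 0.39 (SE, adjusted p = 0.0393 with the block, 0.186 without).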

How the data were processed

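The authors sorted CD4+ and CD8+ T cells into TRIzol, made SMART-Seq v4 libraries (full-length cDNA, no strand, no molecular identifiers) and quantified transcripts on mm10. The labels' processing notes name FastQC, Trimmomatic and Salmon 0.9.1. The deposited values used here are Salmon's expected counts per transcript. Here 111787 of 112092 transcripts were matched to GENCODE M21, summed into 34932 genes and rounded. The TPM that the authors deposited (Salmon) served only to average transcript lengths per gene in an alternative with length offsets. Genes that reached 10 counts in 4 or more libraries were tested in edgeR 4.0.16 (R 4.3.3) by the quasi-likelihood test with TMM scaling and Benjamini-Hochberg adjustment. Genes were called at an adjusted p below 0.05 with a log2 fold change of more than 1 in size. DESeq2 1.42.0 was an alternative, and DESeq2 is the tool that the study's methods name. The ± after a log2 fold change or a difference of these is the SE from edgeR's fit. After a CPM or a percentage it is the SD of the 4 libraries. Simulated counts were used to check the fits.

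The members and gene lists were chosen with earlier results of these data known. Named genes were list members, chosen by smallest adjusted p, role or opposite sign, and protein-coding genes called without overlap at a mean of at least 10 CPM in the higher group (up to 12 per direction), with 6 per direction for interactions. Replicate numbers were taken to pair the libraries, since the study sorted both subsets from each tumor. Same-numbered libraries deviated together in 4 of 4 pairs (correlations of 0.123 to 0.744, against -0.625 to 0.216 between other numbers), and 5 of 8 libraries correlated best with their own number. The fit without the block stands first because the study's methods name none. Those methods name DESeq2 for differential expression, so the 17 calls of edgeR do not follow the study's tool. DESeq2 without the block called 149 genes between the subsets and 43 for the difference between genotypes.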

Additional observations from a re-analysis of the deposited data

Results flagged for a closer look

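Within groups of 4 libraries, 126 groups of a named gene were examined and 11 held a library that stood apart from the other 3, where chance gives about 1 in 20. CD4 replicate 1 was low for Zbtb7b (6.28 CPM, others 30.8 to 32.7), Ctla4 (151.9, others 305.6 to 337.2) and Trav11 (6.412, others 16.1 to 16.9). CD4 replicate 2 was low for Ccl3 (6.288 CPM, others 12.9 to 13.5). CD4 replicate 3 was high for Eomes (5.138 CPM, others 0.831 to 1.27) and Nr4a2 (57.6, others 14.4 to 17.9). Among CD8 libraries, replicate 3 was high for Bend4 (41.62 CPM, others 20.6 to 24.1), Gzmk (327.9, others 81.5 to 116.4) and Klrk1 (130.2, others 41.7 to 48.1), replicate 1 was low for Cd40lg (0.4061, others 1.61 to 1.85), and replicate 2 held Trav11 at 1.155 CPM where the others held 0.

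The CD4 minus CD8 log2 fold change differed between TILs and TDLNs in 13 genes described above, by an interaction term in edgeR. It was higher in TILs for Haao (difference 4.213), Gm49391 (7.365), Gas7 (4.428), Ly6c2 (4.779), Pltp (3.616), Ccr9 (2.856) and Nkg7 (3.835). It was lower in TILs for Myo10 (-4.872), Havcr2 (-6.137), Ly6c1 (-5.706), Cttn (-3.973), Cers6 (-2.601) and Lgmn (-2.638). With T cell scaling, Pltp, Ccr9, Myo10, Cttn, Cers6 and Lgmn were not called (adjusted p from 0.0558 to 0.705). The value of Gm49391 depends on a group at 0 counts and is not exact. Havcr2, Gas7 and Cttn held 7 counts or fewer in each library of their lower TDLN group, so their values are not exact either.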

How the results depend on the processing

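Counts of calls in TILs, higher in CD4 and higher in CD8, were 89 and 60 by DESeq2, 34 and 29 without the count filter, 35 and 31 with a marker-gene covariate, 57 and 46 with the replicate block, 87 and 82 with the block and T cell scaling, and 39 and 29, 43 and 44, and 14 and 22 with the block without replicate 1, 2 and 4. Without single libraries they ranged from 3 to 24 and 3 to 14, and without both libraries of a number from 0 to 7 and 0 to 5. For the difference between tissues, higher and lower counts were 62 and 104 by DESeq2, 34 and 62 without the filter, 39 and 71 with the planned replicate block, 124 and 140 with the block within tissue, and 9 and 6 with T cell scaling. The lower count was 65 with the covariate. Single libraries moved them from 12 to 27 and from 18 to 42. For the genotype, DESeq2 gave 23 and 20 and the replicate block gave 4 higher, and single libraries gave 0 to 5 and 0 to 1, the highest without Yap-cKO CD4 replicate 3. Scaling on T cell genes moved the median log2 fold change of all genes by -0.10 in TILs, with 5 and 13 called. Runx3 reversed without CD8 replicate 3 (0.27) and without both of replicate 3 (0.0036), with a range over single libraries from -0.63 to 0.27. Pdcd1 reversed without CD8 replicate 3 (0.22, range -0.91 to 0.22). For 64 named genes, of which 16 were called in the main fit, 3 values reversed over all settings. In 1086 cases the side and the call stayed the same, in 216 a call was gained and in 97 a call was lost. Without both libraries of replicate 4, 13 calls were lost. The block gained 29 calls among these genes and lost 0. With the block but without replicate 3, only 3 were gained and 2 were lost. The causes were not tested beyond fewer libraries or genes in a fit.

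The libraries hold 4 samples a group, much tumor RNA and no unique molecular identifiers. At 3 counts, levels under about 0.24 CPM cannot be told from 0.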

Other observations

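A pattern noticed after the values were seen concerns the share of T cell receptor beta V counts taken by the leading segment of each library. In WT CD8 TILs this share was 61.3% (Trbv16), 19.9% (Trbv19), 28.4% (Trbv12-1) and 25.2% (Trbv12-2) in replicates 1 to 4, a mean of 33.7 ± 18.7% (SD, n = 4). WT CD4 TILs lay at 11.9 ± 1.55%, below each CD8 library. The difference had an exact two-sided permutation p of 0.0286, the smallest that 70 assignments allow, and an adjusted p of 0.228 over 8 comparisons, so it did not pass the correction. The leading segment differed between the 4 CD8 libraries. In Yap-cKO TILs the shares were 14.4 ± 3.28% in CD8 and 14.2 ± 2.45% in CD4 (exact permutation p = 0.914), and in WT TDLNs 10.4 ± 0.68% and 11.1 ± 0.98% (exact permutation p = 0.257). Alpha V segments, among the 8 comparisons, had leading shares of 20.1 ± 20.1% in WT CD8 TILs and 6.32 ± 1.55% in WT CD4 TILs (exact permutation p = 0.114), with CD8 higher in 3 of 4 numbers and CD8 replicate 2 at 5.68%. In Yap-cKO TILs they were 13.1 ± 12.6% in CD8, where replicate 2 held 32.0%, and 7.46 ± 3.78% in CD4 (exact permutation p = 0.629). In WT TDLNs the alpha shares were 4.72 ± 0.33% in CD8 and 5.36 ± 0.24% in CD4 (exact permutation p = 0.0571). In Yap-cKO TDLNs the exact permutation p was 0.114 for alpha and 0.257 for beta segments. V segments share sequence, so the split of reads between them is uncertain, and whether the difference of WT from Yap-cKO TILs holds was not tested.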
